A study of Mus musculus with 4 samples.

Results

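The genes described here make cholesterol and fatty acids, and they were read in pancreatic islets, the small clusters of hormone-secreting cells scattered through the pancreas, with and without the tetraspanin gene Tspan7. The members are 29 genes listed by symbol: 15 enzymes of the sterol arm (from acetyl units to cholesterol), 6 genes of the SREBP system that switches lipid synthesis on and off or moves sterol, and 8 genes of the fatty acid arm. All 29 symbols matched exactly 1 row each of the 52636 gene rows in the table, and all 29 were among the 16924 genes abundant enough to be tested. The RNA came from 2 control libraries of wild-type mice and 2 knockout libraries of mice whose only X-linked copy of Tspan7 was lost (Tspan7 y/-). The sample labels call the second group a knockout and the text on the series a knockdown; none of the sources used here gives strain, age or the number of animals behind a library. Nothing in the labels says that libraries of a group came from separate animals, so p-values measure the spread between these libraries, which may be technical.

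Cholesterol is built from acetyl-CoA through mevalonate, isoprenoid units, squalene and lanosterol. Fatty acids are built from cytosolic citrate by way of acetyl-CoA and malonyl-CoA, and are then lengthened and desaturated. Both arms are driven by the SREBP transcription factors, which sit in the endoplasmic reticulum bound to the escort protein SCAP; when membrane sterol is plentiful the INSIG proteins hold the complex there, and when it falls the complex leaves to be cut and activated. In beta cells, membrane cholesterol is known to matter for the clustering of the proteins that release insulin granules, and tetraspanins are known to organise membranes in domains that contain cholesterol.

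SREBPs bind sterol regulatory elements and act together with the factors NF-Y and Sp1, so the promoters of the members were searched for the letters of such sites. RefSeq promoter windows on GRCm38.p6, reaching from 250 bases before to 50 after a start of transcription, were at hand for 23 of the 29 members. Letters were searched on both strands, and no hit of one kind overlapped a hit of another in a member's window. The sterol regulatory element letters TCACNCCAC were present in 1.24% of all 32851 windows of the same length. Among the 23 members with a window only Hmgcs1 held them, beginning 137 bases before the start. The NF-Y letters CCAAT were in 37.4% of all windows, and in at least 1 window of all 12 sterol enzymes with one, of 4 of 5 SREBP control genes and of 4 of 6 fatty acid genes, beside 41.1% of all genes in the table. The Sp1 letters GGGCGG were in 35.7% of all windows, and in at least 1 window of 11 of the 12 sterol enzymes, of all 5 control genes and of 2 of the 6 fatty acid genes, beside 38.2% of all genes. Such matches describe letters, and a window without them says nothing on binding. Below are the windows of Hmgcs1, the single holder of the sterol element, Mvk, which has 5 NF-Y matches, and Fasn, the fatty acid gene with the most NF-Y matches (3, of which 2 share bases on opposite strands). Capitals mark the sterol element and the NF-Y letters on either strand, where CCAAT on the other strand reads ATTGG.
Hmgcs1 (chr13:119690101-119690400, plus strand): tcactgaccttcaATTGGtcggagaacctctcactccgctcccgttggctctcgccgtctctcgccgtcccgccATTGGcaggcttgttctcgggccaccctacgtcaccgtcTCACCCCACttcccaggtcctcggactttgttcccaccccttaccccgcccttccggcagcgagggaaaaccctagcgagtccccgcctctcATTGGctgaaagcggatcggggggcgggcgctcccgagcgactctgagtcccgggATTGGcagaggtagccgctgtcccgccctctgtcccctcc
Mvk (chr5:114444019-114444318, plus strand): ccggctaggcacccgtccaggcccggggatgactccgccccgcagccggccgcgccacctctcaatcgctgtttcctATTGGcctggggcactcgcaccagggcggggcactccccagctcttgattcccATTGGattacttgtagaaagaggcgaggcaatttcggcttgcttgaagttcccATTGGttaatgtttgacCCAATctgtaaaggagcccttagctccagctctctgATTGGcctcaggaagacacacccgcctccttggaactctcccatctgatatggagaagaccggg
Fasn (chr11:120824498-120824797, minus strand): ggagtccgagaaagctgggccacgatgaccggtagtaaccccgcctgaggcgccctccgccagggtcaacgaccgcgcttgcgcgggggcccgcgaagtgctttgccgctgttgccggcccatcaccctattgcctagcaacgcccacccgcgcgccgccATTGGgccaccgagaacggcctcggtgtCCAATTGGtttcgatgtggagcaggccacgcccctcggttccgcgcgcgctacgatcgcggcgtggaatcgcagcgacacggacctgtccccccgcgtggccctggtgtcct

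The libraries held between 7855665 and 9377220 counts. CPM are counts scaled to a common library size. By library totals alone, before the further scaling named below, 3 counts, used as a detection floor, correspond to at most 0.382 CPM. Tspan7 itself had 1924 and 1795 counts in the controls and 3 and 2 in the knockouts, as the labels require. The 11 endocrine markers, insulin and glucagon genes included, summed to between 21252 and 25304 CPM in every library. In RNA from whole islets, fewer cells of a type and less RNA per cell cannot be told apart. Values below are CPM after scaling by the trimmed mean of M-values (TMM), given as control replicates 1 and 2 and then knockout replicates 1 and 2, with group means ± SD (n = 2 each). Log2 fold changes are knockout against control ± SE from edgeR's quasi-likelihood test, with Benjamini-Hochberg adjusted p over all genes tested.

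None of the 29 genes passed. The smallest adjusted p among them was 0.9997, at the 0.05 threshold that 0.00591% of all tested genes (1 of 16924, Tspan7) passed. Log2 fold changes ran from -0.46 to 0.53, with 14 positive, 15 negative and a median of -0.02, beside a median of 0.003 over all genes tested. A single member, Stard4, had an unadjusted p under 0.05, against 3.51% of all genes (594 of 16924). DESeq2 and limma-voom also called 0 members. In the 95% intervals of the fits, 18 members lay wholly within a 1.5-fold change in either direction and 27 within 2-fold, the exceptions being Mvk and Acacb. At this depth and with 2 libraries a group, a change within those intervals is not excluded. The intervals are unadjusted and give no detection limit for the adjusted test. That of Stard4 (0.10 to 0.96 on the log2 scale) lay clear of 0, yet its adjusted p in the same fit was 0.9997.

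**Figure D1:**
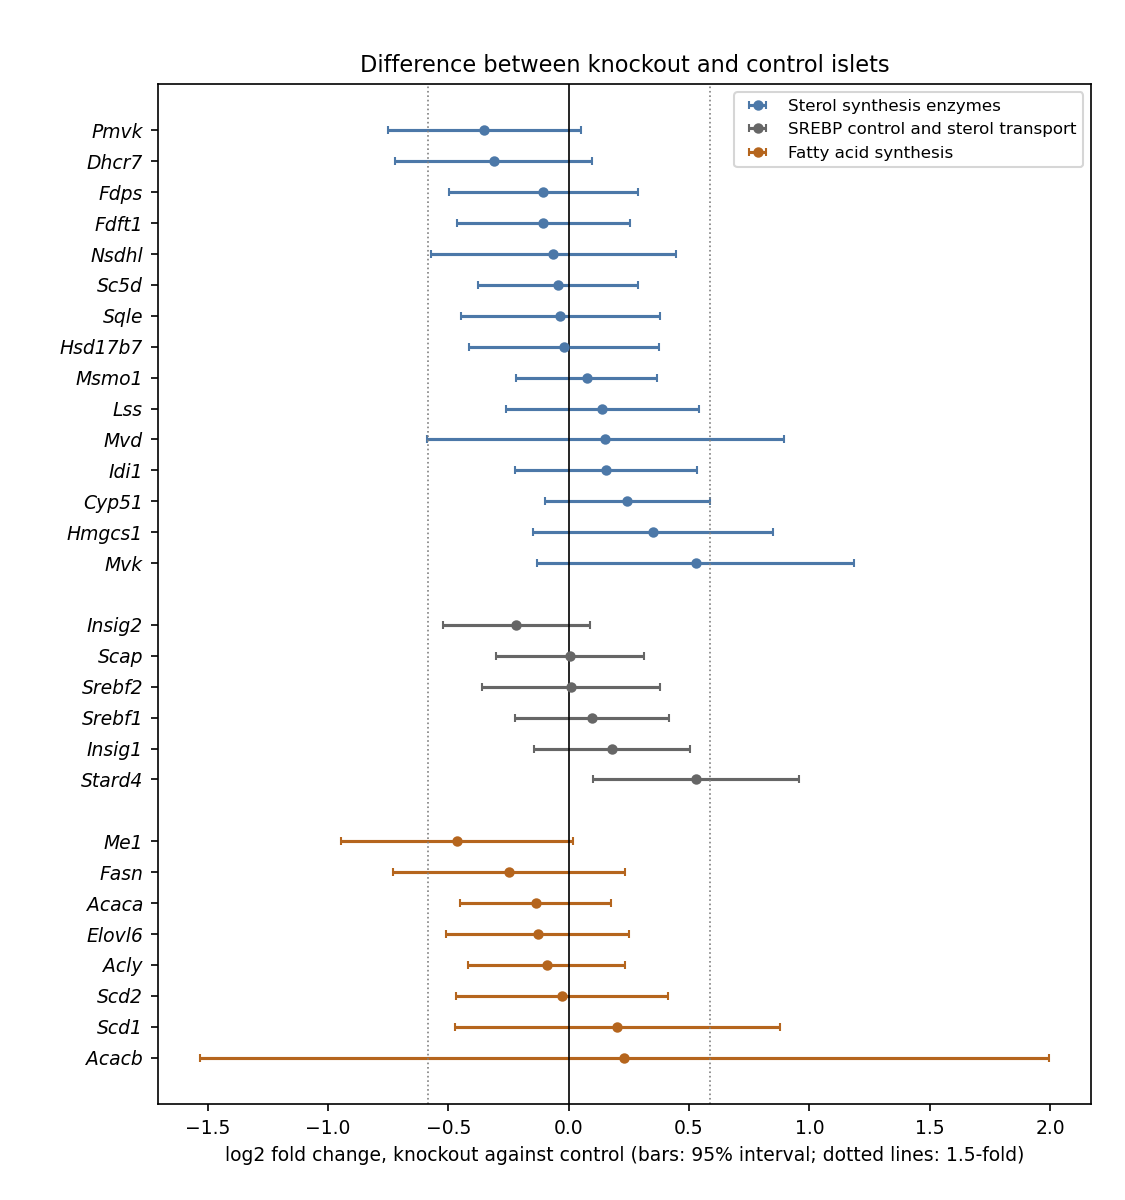
Log2 fold change of each of the 29 genes in knockout against control islets, with bars for the 95% interval of the quasi-likelihood fit and dotted lines at 1.5-fold. Points spread on both sides of 0 in the sterol arm (7 positive, 8 negative), and only the bar of Stard4 stays clear of 0.

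For most members the libraries of at least 1 group differed by more than the group means did. For each member the gap between the control libraries, the gap between the knockout libraries and the gap between group means were taken on the log2 CPM scale. Their medians over the 29 genes were 0.22, 0.22 and 0.14. The group gap was also the smallest in the sterol arm (0.22, 0.22 and 0.12) and in the fatty acid arm (0.49, 0.31 and 0.15). It was the largest in the 6 SREBP control genes (0.08, 0.07 and 0.14), of which 2 had a group gap above both replicate gaps. Averaging 2 libraries narrows a gap by itself, so the group gap and the replicate gaps are unlike measures. The group gap was larger than both replicate gaps for 5 genes (Mvk, Pmvk, Msmo1, Insig2 and Stard4), which is 17.2% of the members, beside 19.0% of all genes tested. Groups did not overlap, with both knockout libraries above both controls, for 6 members, 4 of them in the sterol arm (Mvk, Idi1, Cyp51, Msmo1) and 2 in the control group (Insig1, Stard4); 15.3% of all genes have that arrangement. Both knockout libraries lay below both controls for 5 members (Pmvk, Dhcr7, Insig2, Acaca and Me1), beside 15% of all genes.

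**Figure D2:**
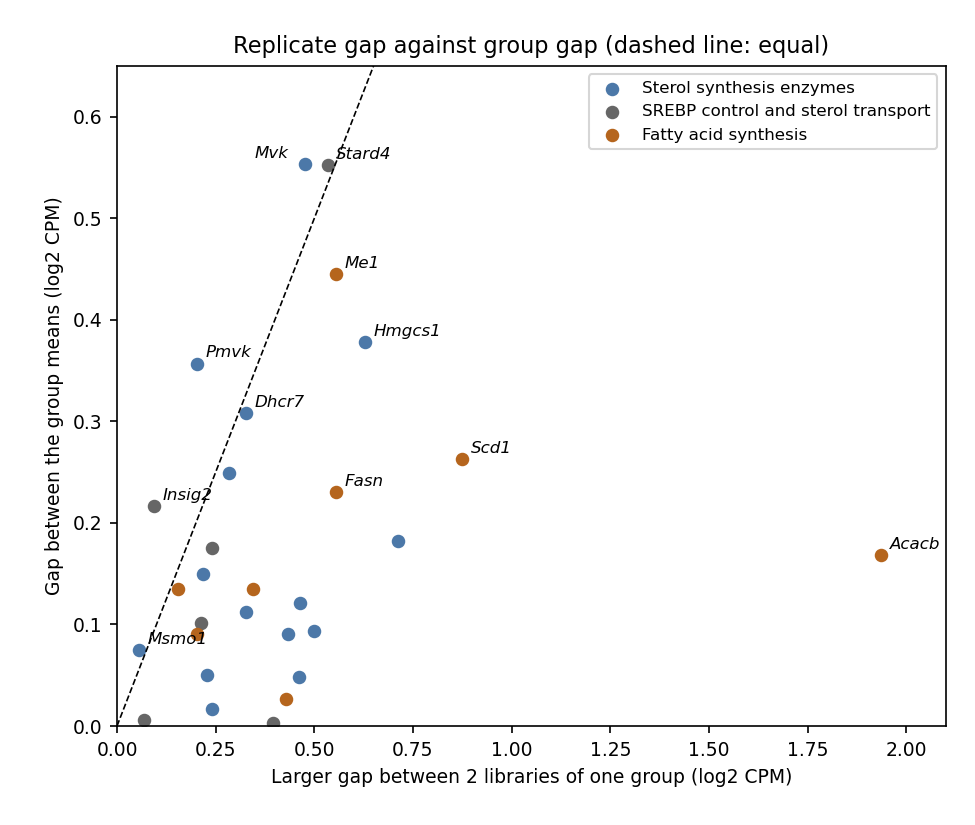
For each gene, the larger of the 2 gaps between libraries of the same group (x axis, log2 CPM) and the gap between group means (y axis, log2 CPM), with a dashed line where they are equal. The 5 genes above the line are Mvk, Pmvk, Msmo1, Insig2 and Stard4, and Acacb lies far to the right at a replicate gap of 1.94.

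None of the sterol enzymes passed the test, and their fold changes took both signs (7 positive, 8 negative). Its 15 enzymes had a median log2 fold change of -0.02, from -0.35 to 0.53, and 9 of the 15 had overlapping groups. At the entry, Hmgcs1 (ENSMUSG00000093930), the synthase that joins acetyl units to form HMG-CoA and the most abundant sterol enzyme per kilobase of annotated exon, measured 313, 203, 359 and 299 CPM. Control replicate 2 was the low library, while control replicate 1 stood above knockout replicate 2, so the groups overlapped. The means were 258 ± 78.2 and 329 ± 42.3 CPM, with a log2 fold change of 0.35 ± 0.21 (95% interval -0.15 to 0.85).

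The 3 enzymes that turn mevalonate into activated isoprene did not go the same way. Mvk (ENSMUSG00000041939), mevalonate kinase, had only 31, 48, 61 and 48 counts, or 3.67, 5.10, 6.34 and 6.36 CPM. Both knockout libraries were above the controls, with a log2 fold change of 0.53 ± 0.29 and an interval that reached from -0.13 to 1.19. Pmvk (ENSMUSG00000027952), the kinase of the next step, measured 20.2, 20.9, 17.2 and 14.98 CPM, so here both knockout libraries were below. Its log2 fold change was -0.35 ± 0.17 (interval -0.75 to 0.05, unadjusted p = 0.0788), the smallest p of the arm. Mvd, the decarboxylase that follows, gave 34 to 54 counts a library and stood at 0.15 ± 0.32. Of the isoprenoid enzymes downstream, Idi1, the isomerase, stood at 0.16 ± 0.16 and Fdps, farnesyl diphosphate synthase, at -0.11 ± 0.17.

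None of the 3 enzymes of squalene and lanosterol formation passed the test. Fdft1 (squalene synthase), Sqle (squalene epoxidase) and Lss (lanosterol synthase) had log2 fold changes of -0.10 ± 0.16, -0.03 ± 0.18 and 0.14 ± 0.18. In all 3, knockout replicate 2 was the lowest library and the knockout libraries were further apart than the controls. Sqle measured 166, 194, 204 and 148 CPM, which puts both controls between the knockouts.

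From lanosterol to cholesterol the enzymes again differed in direction. Cyp51 (ENSMUSG00000001467), the demethylase of lanosterol, measured 169, 139, 191 and 174 CPM, or 154 ± 21.3 against 182 ± 12.6, with a log2 fold change of 0.24 ± 0.15 (interval -0.10 to 0.59). The knockout libraries were the higher, with knockout replicate 2 only just above control replicate 1. Msmo1 (ENSMUSG00000031604), the methyl sterol oxidase of the next steps and the sterol enzyme second to Hmgcs1 per kilobase, was the steadiest of the arm at 248, 241, 262 and 252 CPM. Its log2 fold change was 0.07 ± 0.13, with an interval of -0.22 to 0.37. Nsdhl and Hsd17b7, a dehydrogenase and a ketoreductase of the steps that remove the 4-methyl groups, stood at -0.06 ± 0.22 and -0.02 ± 0.17. Sc5d, a desaturase, stood at -0.05 ± 0.14. Dhcr7 (ENSMUSG00000058454), the reductase of the last step of one branch, measured 28.04, 35.2, 27.4 and 23.5 CPM. The knockouts were below the controls, although knockout replicate 1 and control replicate 1 were nearly equal, and the log2 fold change was -0.31 ± 0.18 (interval -0.72 to 0.10).

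By median, the 6 genes of SREBP control had the smallest replicate gaps of the 3 sets (0.08 in controls, 0.07 in knockouts), below their group gap of 0.14. Gaps were wider for the controls of Stard4 (0.53) and the knockouts of Srebf2 (0.39). Their median log2 fold change was 0.05, with 5 positive values and 1 negative. They summed to 687 and 678 CPM in the controls and 737 and 731 CPM in the knockouts, or 683 ± 6.88 against 734 ± 3.87. For this sum, which has no test of its own, the groups stood further apart than the libraries within them. Control and knockout means were 205 and 232 CPM for Insig1, 61.0 and 88.0 for Stard4, and 102 and 110 for Srebf1. Insig2 was lower in the knockouts (82.2 and 70.7), and Srebf2 (174 and 175) and Scap (58.6 and 58.8) hardly differed. In the knockouts Srebf2 (198 and 151 CPM) and Insig1 (213 and 251 CPM) went opposite ways, so the sum hides part of the replicate spread. The mean over the 6 genes of log2 CPM minus each gene's 4-library mean also separated the groups. It was -0.02 and -0.08 in the controls and 0.06 and 0.05 in the knockouts. That mean has no test either, and it too averages genes that went opposite ways. Srebf1 (ENSMUSG00000020538), whose product SREBP-1 mainly drives fatty acid genes, measured 94.9, 110, 112 and 108 CPM, a log2 fold change of 0.10 ± 0.14. Srebf2 (ENSMUSG00000022463), whose product SREBP-2 mainly drives sterol genes, measured 175, 172, 198 and 151 CPM. The controls lay between the knockouts, and the log2 fold change was 0.01 ± 0.16 (interval -0.36 to 0.38). Scap (ENSMUSG00000032485), the sterol-sensing escort, measured 59.99, 57.2, 57.4 and 60.2 CPM (0.01 ± 0.13). For none of these 3 genes did the groups separate.

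The INSIG genes pointed in different directions and Stard4 differed most. Insig1 (ENSMUSG00000045294), itself an SREBP target, measured 206, 203, 213 and 251 CPM, with only knockout replicate 2 standing apart (log2 fold change 0.18 ± 0.14, interval -0.14 to 0.50). Insig2 (ENSMUSG00000003721), which does the same work but is regulated differently, measured 79.5, 84.9, 70.5 and 70.9 CPM. Each group was tight and the knockouts were below, with a log2 fold change of -0.22 ± 0.13 (interval -0.52 to 0.09). Stard4 (ENSMUSG00000024378), a soluble carrier that moves cholesterol between membranes, measured 72.2, 49.8, 86.0 and 90.0 CPM. Both knockout libraries were above both controls, and control replicate 2 was the lowest of the 4. The log2 fold change was 0.53 ± 0.19 (interval 0.10 to 0.96, unadjusted p = 0.0212, adjusted p = 0.9997), and it was 0.28 without control replicate 2 and 0.82 without control replicate 1.

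**Figure D3:**
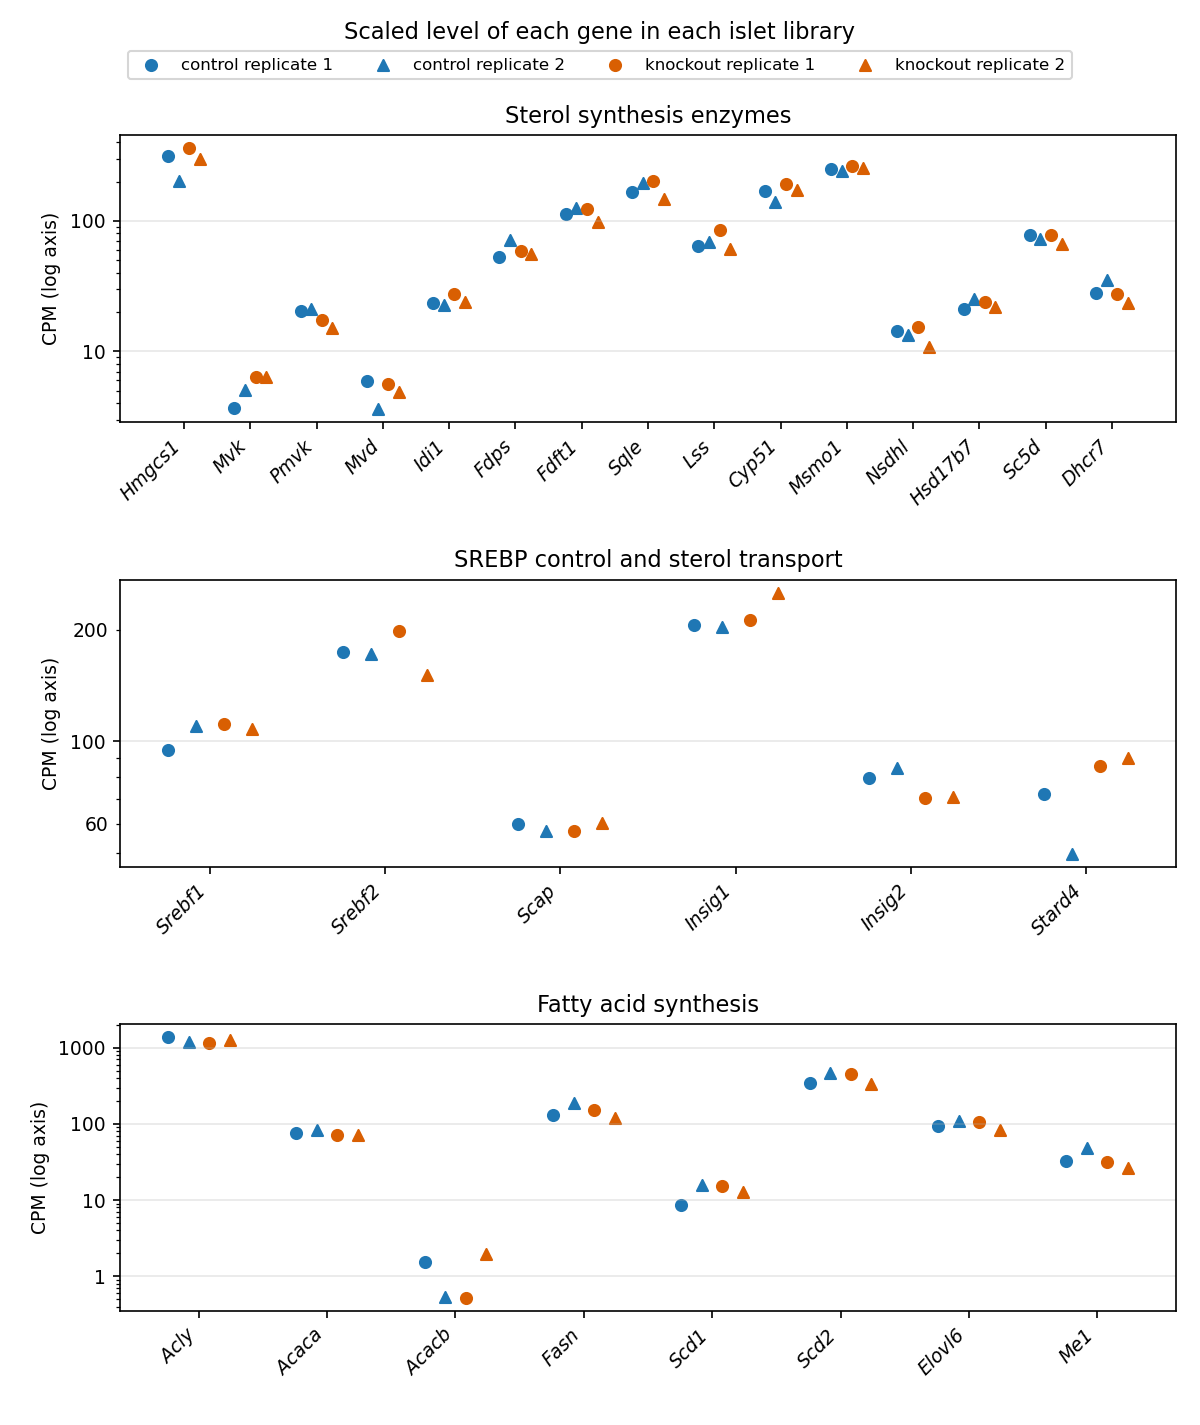
CPM on log axes for every gene in the 4 libraries, with circles and triangles for replicates 1 and 2, blue for control and orange for knockout. The blue and orange symbols overlap for 18 of the 29 genes. Both orange symbols lie above both blue ones for 6 genes, among them Stard4 (49.8 and 72.2 against 86.0 and 90.0). They lie below for 5 genes, among them Insig2. Of all genes tested, 15.3% and 15% have these arrangements.

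None of the fatty acid genes passed the test. Of the 8, 6 had negative log2 fold changes, the median was -0.11 and the range -0.46 to 0.23. Acly (ENSMUSG00000020917), ATP citrate lyase, which makes cytosolic acetyl-CoA for both arms, was the most abundant member by a wide margin at 242 ± 24.1 CPM per kilobase in control islets. The next were Scd2 at 73.3 ± 15.3, Insig1 at 66.2 ± 0.646 and Hmgcs1 at 56.2 ± 17.0, and the gaps between these neighbours were smaller than the SD of Scd2 or Hmgcs1, though larger than that of Insig1. Acly measured 1368, 1189, 1139 and 1260 CPM, with overlapping groups (log2 fold change -0.09 ± 0.14, interval -0.42 to 0.23).

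Malonyl-CoA and palmitate formation followed. Acaca (ENSMUSG00000020532), the cytosolic acetyl-CoA carboxylase, measured 75.0, 83.5, 72.0 and 72.2 CPM, a log2 fold change of -0.14 ± 0.14 (interval -0.45 to 0.18). Acacb, the form tied to control of fatty acid oxidation, gave 13, 5, 5 and 15 counts and was the least abundant member at 0.107 ± 0.0739 CPM per kilobase in control islets, too few counts for a statement on its direction. Fasn (ENSMUSG00000025153), fatty acid synthase, measured 129, 190, 150 and 119 CPM. Control replicate 2 was the high library and control replicate 1 lay between the knockouts, and the log2 fold change was -0.25 ± 0.21 (interval -0.73 to 0.24; 0.06 without control replicate 2).

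Elongation and desaturation were not separated by genotype. Elovl6 (ENSMUSG00000041220), which lengthens palmitate, measured 93.9, 111, 105 and 82.3 CPM (-0.13 ± 0.17). Scd2 (ENSMUSG00000025203), a stearoyl-CoA desaturase, measured 342, 460, 447 and 339 CPM, so that each group had 1 high and 1 low library of nearly the same values, with a log2 fold change of -0.03 ± 0.19. Its relative Scd1 was far lower, at 2.50 ± 1.04 against 73.3 ± 15.3 CPM per kilobase in control islets, and stood at 0.20 ± 0.29. Me1 (ENSMUSG00000032418), malic enzyme, which supplies NADPH for synthesis, measured 32.5, 47.8, 32.0 and 26.2 CPM. The knockouts were below the controls, but control replicate 1 and knockout replicate 1 were nearly equal. Its log2 fold change was -0.46 ± 0.21 (interval -0.95 to 0.02, unadjusted p = 0.0576), the smallest p of the arm, and -0.16 without control replicate 2.

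Set side by side, the sterol arm's median stood 0.09 above that of the fatty acid arm on the log2 fold change scale, a difference with no test of its own. It was 0.27 without knockout replicate 2 and 0.08 without knockout replicate 1, and it was positive in all 4 fits that left out 1 library, which share libraries. For each library, the mean of log2 CPM minus each gene's 4-library mean was also taken, sterol enzymes minus fatty acid genes. It was 0.008 and -0.13 in the controls and 0.20 and -0.08 in the knockouts, so the groups overlapped. The pooled SD between replicates of this value was 0.15. Both depend on the sparsely counted Acacb, with 13, 5, 5 and 15 counts. With it the fatty acid means were -0.03 and 0.11 in the controls and -0.06 and -0.02 in the knockouts. Without it they were -0.13 and 0.24 in the controls and 0.05 and -0.16 in the knockouts. The sterol median itself was 0.16 without knockout replicate 2 and -0.11 without knockout replicate 1, and the fatty acid median ran from -0.22, with control replicate 1 left out, to -0.03, with control replicate 2 left out. The sterol enzymes summed to 1320, 1239, 1485 and 1260 CPM, with overlapping groups. The fatty acid genes summed to 2051, 2096, 1961 and 1912 CPM, lower in both knockout libraries, at 2074 ± 31.9 against 1937 ± 34.7, or 0.934 of the control sum. In that sum, of which Acly makes up most, the groups stood further apart than the libraries within them, while for none of the 8 genes taken alone did the group gap exceed both replicate gaps.

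**Figure D4:**
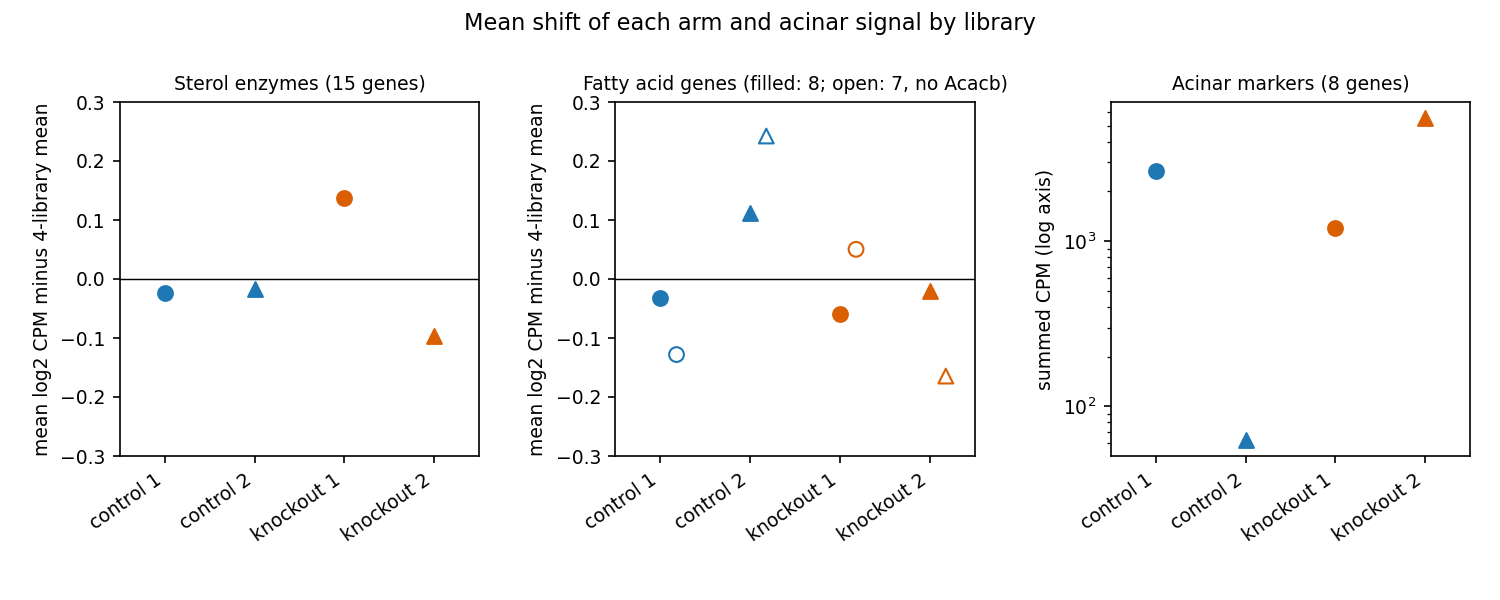
Mean over genes of log2 CPM minus each gene's 4-library mean, for the 15 sterol enzymes (left) and the fatty acid genes (middle; filled symbols for all 8, open symbols without Acacb), and summed CPM of 8 acinar markers on a log axis (right), 1 symbol a library. The sterol mean is highest in knockout replicate 1 (0.14) and lowest in knockout replicate 2 (-0.10), and the fatty acid mean is highest in control replicate 2 (0.11 over all 8 genes, 0.24 without Acacb) and lowest in knockout replicate 1 over all 8 (-0.06) but in knockout replicate 2 without Acacb (-0.16).

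The arms were highest in different libraries. Of the 15 sterol enzymes 8 were highest in knockout replicate 1 and 7 were lowest in knockout replicate 2, beside 23.1% and 26.5% of all genes tested. Of the 8 fatty acid genes 6 were highest in control replicate 2, beside 28.02% of all genes, and 4 were lowest in knockout replicate 2. As a mean of log2 deviations, the sterol enzymes stood at -0.02, -0.02, 0.14 and -0.10 in the 4 libraries, and the 8 fatty acid genes at -0.03, 0.11, -0.06 and -0.02. Without the sparsely counted Acacb, left out after its values were seen, the fatty acid means were -0.13, 0.24, 0.05 and -0.16. Carry-over of acinar tissue, the enzyme-secreting part of the pancreas, differed between the same libraries: its 8 markers summed to 2639, 62.7, 1204 and 5550 CPM. From the highest to the lowest fatty acid mean without Acacb, the libraries stood in the order of increasing acinar signal; over all 8 genes they did not. Fasn, Scd2, Elovl6 and, in the sterol arm, Fdft1 each had exactly that order of libraries, a pattern looked for after the values were seen and found in 7.08% of all genes tested. The part of acinar carry-over in these levels was not tested.

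Markers of other cells that islet preparations can hold were summed in the same way, and 0 of them passed the test in any list. Of 10 adipocyte markers 3 were at 0 counts in all libraries and 8 never exceeded 3 counts, Adipoq and Plin1 among them, and the list summed to 5.82 to 9.94 CPM. In 4 lists both knockout sums were below both control sums. Of single genes tested 15% have that arrangement, which gives no rate for sums over several genes. The 12 macrophage markers summed to 109 and 93.9 CPM in control and 78.3 and 66.8 CPM in knockout libraries. All 11 tested had negative log2 fold changes, with a median of -0.48 beside 0.003 over all genes. Of the 11, 5 had an unadjusted p under 0.05 in edgeR's test, beside 3.51% of all genes. Endothelial markers summed to 559 and 571 against 480 and 557 CPM (median -0.21, 8 of 10 negative), with knockout replicate 2 nearly equal to control replicate 1. Markers of stellate cells and pericytes summed to 211 and 243 against 162 and 208 CPM (median -0.41, 5 of 8 negative), and those of ducts to 221 and 384 against 204 and 218 CPM (median 0.02, 3 of 6 negative). Rgs5 gave most of the stellate and pericyte counts, with 1420 and 1732 in controls and 1197 and 1241 in knockouts. In the duct list Spp1 gave 378 and 1614 against 184 and 363 counts, while Krt7 gave 1245 and 1669 against 1486 and 1032. These 2 sums thus lean on few genes. Schwann cell markers summed to 13.6 to 17.4 CPM. Whether any of these marker differences bears on the members was not tested.

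Other genes of lipid metabolism did not pass either, with 0 called in each of 6 lists. The 10 tested genes of further sterol and isoprenoid synthesis had a median log2 fold change of -0.02 (5 positive, 5 negative), led by Lbr, a sterol reductase of the nuclear envelope, at 0.16 ± 0.13, and Nus1, a subunit of the enzyme that makes dolichol, at -0.14 ± 0.13. The 14 further SREBP regulators had a median of -0.08, with 4 positive and 10 negative values; Rxra, the partner of the sterol-sensing LXR receptors, stood at 0.26 ± 0.18. Among 16 genes of cholesterol uptake, transport and storage 12 were negative (median -0.15). Lipa, the lysosomal lipase that frees cholesterol from its esters, measured 14.7, 18.9, 11.5 and 12.3 CPM, lower in both knockouts, with a log2 fold change of -0.50 ± 0.21 (unadjusted p = 0.0409, adjusted p = 0.9997), and Npc1, which exports that cholesterol from lysosomes, stood at -0.22 ± 0.14.

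Of 25 further genes of fatty acid synthesis 12 were positive and 13 negative (median -0.02). Mlxipl, which encodes the glucose-sensing factor ChREBP that drives lipogenic genes, measured 102, 90.1, 127 and 120 CPM. Both knockouts were the higher, with a log2 fold change of 0.36 ± 0.14 (interval 0.05 to 0.68, unadjusted p = 0.0286, adjusted p = 0.9997). Elovl2, an elongase of polyunsaturated fatty acids, stood at -0.34 ± 0.15. The 18 genes of triglyceride and phospholipid synthesis had a median of 0.02, with Lpin1, a phosphatidate phosphatase, at 0.40 ± 0.24 and Acsl5, which activates fatty acids, at -0.29 ± 0.19. The 17 genes of fatty acid oxidation had a median of 0.02. Cpt1c, a brain-type carnitine palmitoyltransferase with only 33, 31, 24 and 19 counts, stood at -0.52 ± 0.33. Hadh, a beta-oxidation enzyme, stood at 0.21 ± 0.18. In each of these lists the members ran in both directions.

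Several members share sequence with other genes, and their counts are uncertain to that extent. By GENCODE M21 models, 11 members share exon bases with another counted gene. The microRNA gene Mir5114 lies wholly inside Scd2 exons and still gave 168, 230, 234 and 147 counts, so by these models reads in shared stretches were not all set aside. Hmgcs1 shares 557 bases with Gm48342 on the opposite strand, whose 946, 690, 1186 and 798 counts were high and low in the same libraries as Hmgcs1. Fdft1 shares 774 bases with Ctsb on the opposite strand (1588 to 2469 counts), and Fdps shares 1124 bases with Gm43738 on its own strand (500 to 841 counts). No source used here says whether counting took strand into account, so reads of these pairs cannot be told apart. Scd1 and Scd2 transcripts match at 95.5% over 623 bases, and Acaca matches the pseudogene-like Gm5182 at 99.2% over 6118 bases, though Gm5182 gave only 7 to 15 counts.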

How the data were processed

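RNA of whole islets from control and Tspan7 knockout mice was read in 2 libraries a group. Reads were aligned with HISAT2 and counted per gene with featureCounts against GRCm39, per the submitters' processing notes; their versions, the annotation and the settings for strand and shared reads: not given in the sources used here. The authors deposited 1 table of raw counts per Ensembl gene. Symbols and exon lengths came from GENCODE M21 (52403 of 52636 rows matched), and promoters from RefSeq on GRCm38.p6; no coordinates were carried between builds. In R 4.3.3, genes were kept by edgeR 4.0.16 filterByExpr (minimum count 10), scaled by TMM and tested with the robust quasi-likelihood F test, with Benjamini-Hochberg adjustment over all genes tested and a threshold of 0.05. DESeq2 1.42.0 and limma 3.58.1 (voom) were alternatives, beside other scalings, no filter, a replicate block and leaving out each library.

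The members and all gene lists were chosen with earlier results of these data known. Every member is named. Values in each library are given for the 4 genes with the smallest unadjusted p in each arm, the 6 SREBP control genes and the 2 most abundant genes per kilobase of each arm, and some others were added after their values were seen; of each other pathway list, up to 2 genes with the smallest unadjusted p are named. Group medians are descriptions with no test. Some genes of this pathway are not reported here.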

Additional observations from a re-analysis of the deposited data

How the results depend on the processing

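In all 12 alternative fits 0 members were called, 2 further alternatives changing only which genes a list holds, and the smallest adjusted p of any member was 0.141 (Stard4). Over all genes, 1 gene was called lower and 0 higher by edgeR. Without the low-count filter 47 were called lower and 15 higher, DESeq2 called 6 lower, and the replicate block gave 5 lower and 1 higher. Same-numbered libraries deviated from their group means with a correlation over genes of -0.30. With 2 libraries a group, that value cannot tell whether same-numbered libraries share more than a number. A crossed replicate block, chosen after seeing the data, called 1 gene higher and 1 lower. When 1 library was left out, with the lone library of a group assumed to vary like the other group, 1 to 15 genes were called lower and 0 to 33 higher, the highest counts being those without control replicate 1. Over the same fits the sterol median ran from -0.11 to 0.16, the SREBP control median from 0.029 to 0.088, the fatty acid median from -0.22 to -0.033 and the difference between the arms from 0.076 to 0.27. Leaving out members that share exon bases, chosen after seeing the data, moved the SREBP control median to 0.10, over fewer genes. Direction held in all leave-one-out fits for 12 members: Hmgcs1, Mvk, Pmvk, Idi1, Cyp51, Msmo1, Dhcr7, Insig1, Insig2, Stard4, Acaca and Me1. It changed for 17, with log2 fold changes that ran from -0.17 to 0.54 for Mvd, -0.31 to 0.13 for Fdps, -0.27 to 0.048 for Fdft1, -0.28 to 0.18 for Sqle, -0.11 to 0.35 for Lss, -0.34 to 0.16 for Nsdhl, -0.14 to 0.11 for Hsd17b7, -0.16 to 0.063 for Sc5d, -0.0061 to 0.21 for Srebf1, -0.20 to 0.19 for Srebf2, -0.030 to 0.042 for Scap, -0.19 to 0.011 for Acly, -0.96 to 1.15 for Acacb, -0.50 to 0.057 for Fasn, -0.16 to 0.71 for Scd1, -0.24 to 0.20 for Scd2 and -0.31 to 0.032 for Elovl6. Scap was at -0.0040 with library totals only, and Srebf2 at -0.0013 with limma-voom, -0.0031 with the replicate block and -0.0020 with the crossed block. Apart from fewer genes or samples where they apply, the cause of these shifts was not tested.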
